A study of Mus musculus with 3 samples.

Results

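Gfi1 and Gfi1b are a pair of related mouse genes whose ETO2 sites are described here. A site was taken when the summit of an ETO2 peak, its highest point, lay inside the gene, or no more than 100 kb away from it, or when the nearest start site of a protein-coding gene belonged to either gene. The rule uses position alone. It gave 4 of the 3192 sites in the union of both peak lists, 1 at Gfi1 and 3 at Gfi1b, and they account for 4 of 2335 peaks in replicate 1 and 4 of 1873 peaks in replicate 2. Every one of the 4 sites was called in both replicates, beside 1002 of the 3192 sites in the union. None of the 4 lay at a promoter: the Gfi1 site was upstream of its gene and the 3 Gfi1b sites were downstream of theirs. How often other ETO2 sites lie at promoters was not counted.

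ETO2 chromatin immunoprecipitation with sequencing (ChIP-seq) was performed to find where this protein sits in mesoderm at the onset of blood and vessel specification. FLK1+ mesodermal cells were taken from embryoid bodies of C57Bl/6 X Sv129 mouse embryonic stem (ES) cells, described as wild type, at day 4 per the sample labels, whereas the design text of the series gives an earlier time. There were 2 ETO2 ChIP samples, made with a Santa Cruz antibody, and 1 input, which is chromatin without immunoprecipitation and was not analysed here. The caller used the input as control for replicate 1 and no control for replicate 2. The design text speaks of separate differentiations, but both lists carry the same ChIP name, so separate immunoprecipitations are not shown by the files. There is no unbound or untreated group, no RNA measurement was used here, and the identity of the cells could not be checked against expressed markers.

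GFI1 and GFI1B are zinc-finger repressors that bind DNA and, through an amino-terminal SNAG domain, recruit the histone demethylase LSD1 (Kdm1a) and its CoREST partners. Both genes act when blood cells emerge from haemogenic endothelium, where they help to shut down endothelial genes, and later GFI1 acts mainly in myeloid and lymphoid cells and stem cells and GFI1B in erythroid cells and megakaryocytes. Blood enhancers have been described upstream of Gfi1 and downstream of Gfi1b. The ETO2 sites were not compared with the positions of those enhancers. ETO2, encoded by Cbfa2t3, is a co-repressor that does not bind DNA itself and joins complexes of SCL (Tal1), LMO2, LDB1 and GATA factors, which recognise an E-box and a GATA motif.

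The sequence at each site is shown because the files give only positions and heights, and the letters let the motif counts be read against the DNA. Each run is 300 bases of the mm9 genome, plus strand, 5′ to 3′, around the midpoint of the summits of both replicates. Capitals mark GATA motifs, which are AGATAA and AGATAG, and also TGATAA and TGATAG, on either strand, and the CTG and GATA of a spaced pair, in which 8 to 10 bases separate CTG from GATA. The Gfi1 run covers chr5:108188193-108188492. The runs of the first, the second and the third Gfi1b site, numbered by distance from the gene, cover chr2:28457719-28458018, chr2:28454835-28455134 and chr2:28453615-28453914.
Gfi1 upstream site: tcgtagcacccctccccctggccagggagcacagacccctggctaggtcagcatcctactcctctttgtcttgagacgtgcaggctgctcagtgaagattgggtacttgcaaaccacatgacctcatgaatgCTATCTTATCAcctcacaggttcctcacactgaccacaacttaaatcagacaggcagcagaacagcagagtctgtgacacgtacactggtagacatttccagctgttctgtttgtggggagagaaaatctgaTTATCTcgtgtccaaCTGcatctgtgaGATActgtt
Gfi1b downstream site, the first: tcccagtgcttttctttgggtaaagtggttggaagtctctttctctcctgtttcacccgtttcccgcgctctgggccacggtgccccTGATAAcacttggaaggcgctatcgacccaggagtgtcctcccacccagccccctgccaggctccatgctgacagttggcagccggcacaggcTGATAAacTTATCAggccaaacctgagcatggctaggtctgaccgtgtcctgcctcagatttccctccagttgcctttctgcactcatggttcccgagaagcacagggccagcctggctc
Gfi1b downstream site, the second: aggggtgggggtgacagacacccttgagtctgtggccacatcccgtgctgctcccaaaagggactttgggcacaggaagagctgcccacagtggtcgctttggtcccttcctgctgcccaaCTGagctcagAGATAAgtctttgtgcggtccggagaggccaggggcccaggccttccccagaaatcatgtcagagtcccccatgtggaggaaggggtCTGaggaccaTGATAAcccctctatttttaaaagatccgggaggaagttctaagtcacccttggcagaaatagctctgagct
Gfi1b downstream site, the third: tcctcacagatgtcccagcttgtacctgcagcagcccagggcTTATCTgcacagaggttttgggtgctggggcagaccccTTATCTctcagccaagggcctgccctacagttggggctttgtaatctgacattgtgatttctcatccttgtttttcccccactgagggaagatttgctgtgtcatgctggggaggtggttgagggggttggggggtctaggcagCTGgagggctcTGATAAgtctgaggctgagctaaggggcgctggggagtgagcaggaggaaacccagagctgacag
Every one of the 277 24-base words in each run occurred at 1 place only in the genome, counted on both strands, so that reads from these windows could be placed. The Gfi1 run held 3 GATA motifs and 1 spaced pair. The first Gfi1b run held 3 GATA motifs, of which a pair face each other with 2 bases between them, and no spaced pair. The second Gfi1b run held 2 GATA motifs and 2 spaced pairs, and the third held 3 and 1.

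In GENCODE annotation of mm9, Gfi1 (ENSMUSG00000029275.10) spans chr5:108145674-108155056 on the minus strand, and Gfi1b (ENSMUSG00000026815.8) spans chr2:28464970-28477502 on the minus strand. The Gfi1 site covered chr5:108188091-108188563. Its replicate 1 summit lay 33.2 kb upstream of the first Gfi1 start site, inside an intron of Evi5, the neighbouring gene on the same strand. The nearest start site of another coding gene, 1700013N18Rik, was 71.0 kb away. Although the site lies in the body of Evi5, the closest of the starts compared was therefore that of Gfi1. Other genes were compared by the starts of their coding transcripts only.

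The 3 Gfi1b sites were intergenic and lay past the end of the gene, between Gfi1b and Gtf3c5. They covered chr2:28457736-28458343, chr2:28454712-28455206 and chr2:28453444-28453971. Their replicate 1 summits were 7.10, 9.97 and 11.2 kb past the last base of Gfi1b, or 19.6, 22.5 and 23.8 kb downstream of its first start site. The start site of Gtf3c5, which encodes a subunit of the RNA polymerase III factor TFIIIC, was 19.1, 16.2 and 15.0 kb from the same summits. By coding transcripts all 3 sites were thus nearer to Gtf3c5 than to Gfi1b, and they enter here through the distance rule. Gfi1b also has a non-coding transcript that starts inside the gene, and counted from that start the distances were 13.1, 15.9 and 17.2 kb. This start is nearer than the coding start of Gtf3c5 for the first and second sites. Non-coding starts of other genes were not compared.

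**Figure D1:**
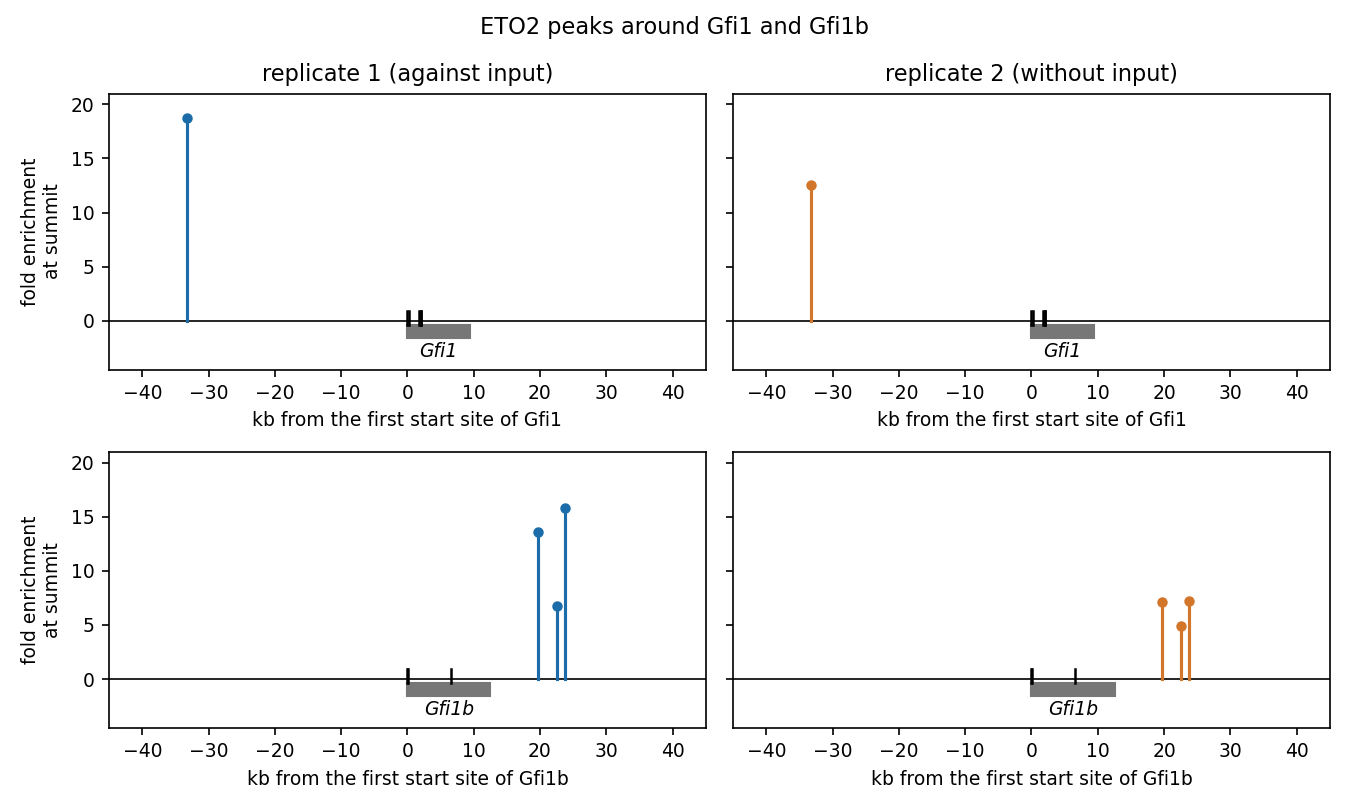
Position (x axis, kb from the first start site, positive in the direction of transcription) and fold enrichment (y axis) of each ETO2 peak at Gfi1 (top) and Gfi1b (bottom), in replicate 1 (left) and replicate 2 (right). The grey bar is the gene and black ticks are annotated start sites: in replicate 1 the Gfi1 peak stands 33.2 kb upstream and the 3 Gfi1b peaks stand between 19.6 and 23.8 kb downstream of the first start, and in replicate 2 the Gfi1 peak stands 33.3 kb upstream.

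No peak of either list had its summit in the body of Gfi1 or Gfi1b, and none lay within 1 kb of any annotated start of either gene. The share of all ETO2 peaks at promoters or in gene bodies was not counted, so this placement is not read as particular to these genes. The closest summit to any Gfi1 start was 33.2 kb away in replicate 1 and 33.3 kb away in replicate 2, and the closest to any Gfi1b start was 13.1 kb away in both. The distances to the next calls outside the 4 sites were not compared with the spacing of sites elsewhere. On either side of Gfi1 the next site lay 279 kb and 3110 kb from the gene, each called in replicate 1 alone. On either side of Gfi1b the next site lay 906 kb away, called in both replicates, and 946 kb away, called in replicate 1 alone. Within 100 kb, Gfi1 has 2 coding neighbours (Evi5 and Rpap2) and Gfi1b has 6 (1700026L06Rik, Ak8, Cel, Gtf3c5, Ralgds and Tsc1), and a site cannot be tied to 1 of these genes by position.

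The promoter of Gfi1b is shown as the contrast to its downstream sites, since it holds the same letters without a call. It is the 250 bases before the RefSeq start (sequence from the GRCm38.p6 table, minus strand, found without a mismatch in mm9 at chr2:28477503-28477752), with the GATA motif in capitals.
Gfi1b promoter: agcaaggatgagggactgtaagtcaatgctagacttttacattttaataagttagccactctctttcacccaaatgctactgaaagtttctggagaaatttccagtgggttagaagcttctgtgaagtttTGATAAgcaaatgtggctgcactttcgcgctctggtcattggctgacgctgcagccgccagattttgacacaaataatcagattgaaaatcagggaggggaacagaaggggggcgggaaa
The GATA motif stands 120 bases before the start and is part of 1 spaced CTG and GATA pair. A GATA motif was found in 26.5% of 32851 RefSeq mouse promoters of this length, and a spaced pair in 5.82%. The 2 Gfi1 promoters in the same table held no GATA motif and no spaced pair, and no promoter of either gene held AATCAC, the core of the motif that GFI1 and GFI1B bind themselves, which was present in 9.14% of promoters.

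The strongest of the 4 sites was the one upstream of Gfi1. Its fold enrichment, which is how many times the scaled ChIP signal at the summit exceeded its local background in the authors' peak calls, was 18.7 in replicate 1 and 12.5 in replicate 2. It ranked 27 of 2335 in replicate 1 (top 1.16%) and 28 of 1873 in replicate 2 (top 1.49%), so it was near the head of both lists. The deposited values correspond to 87 fragments at the summit in replicate 1 (exact 95% Poisson interval 69.7 to 107) and 96 in replicate 2 (77.8 to 117). The median peak had 27 fragments in replicate 1 and 35 in replicate 2. The local background on the caller's scale was 5.29 and 6.74 fragments. The peak was 473 bp wide in replicate 1 and 457 bp wide in replicate 2, and its summits were 90 bp apart.

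The first Gfi1b site had a fold enrichment of 13.6 in replicate 1 (rank 104, top 4.45%) and 7.10 in replicate 2 (rank 309, top 16.5%). It held 70 fragments in replicate 1 (54.6 to 88.4) and 64 in replicate 2 (49.3 to 81.7), and both lists put the summit on the same base, 28457869. It was the widest of the 4 sites in replicate 1 and the narrowest in replicate 2, at 608 and 227 bp.

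The second Gfi1b site was the weakest of the 4 in both lists. Its fold enrichment was 6.76 in replicate 1 (rank 663, top 28.4%) and 4.95 in replicate 2 (rank 903, top 48.2%). It held 26 fragments in replicate 1 (17.0 to 38.1), close to the median peak, and 45 in replicate 2 (32.8 to 60.2). Its summits were 27 bp apart.

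The third Gfi1b site, the farthest from the gene, had a fold enrichment of 15.8 in replicate 1 (rank 57, top 2.44%) and 7.24 in replicate 2 (rank 290, top 15.5%). It held 70 fragments in each replicate (54.6 to 88.4), with summits 58 bp apart. The order of the sites by fold enrichment was the same in both lists: Gfi1, then the third, the first and the second Gfi1b site. The third and the first site were close, with 70 fragments each in replicate 1 and fold enrichments of 7.24 and 7.10 in replicate 2. Their intervals overlapped in both lists, so the order of this pair is not settled.

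**Figure D2:**
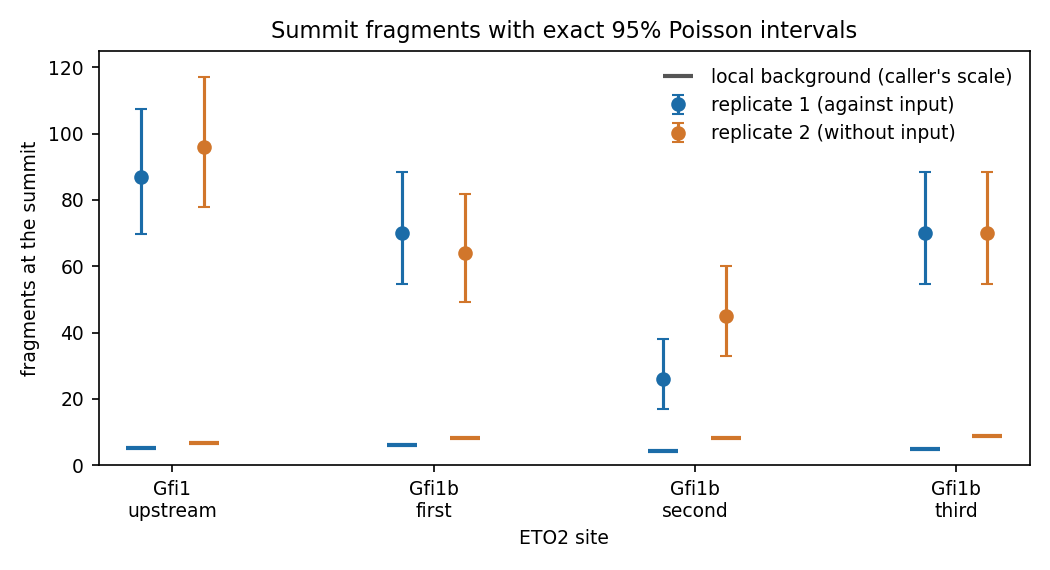
Fragments at the summit (y axis) of the 4 ETO2 sites (x axis) in replicate 1 (blue) and replicate 2 (orange), with exact 95% Poisson intervals as error bars and the local background on the caller's scale as horizontal dashes. The second Gfi1b site, with 26 and 45 fragments, is the lowest in both lists, and the Gfi1 site, with 87 and 96, is the highest.

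In replicate 1 the interval of the second Gfi1b site lay wholly below those of the first and the third site. In replicate 2 the interval of the second site overlapped both, which does not settle whether the counts differ. The intervals of the first and the third site overlapped in both replicates. These intervals cover counting error only, and with 2 libraries no test between sites or replicates was made. Levels were not compared between the lists because their controls differ. The local background at the 4 sites lay between the 22.4th and 52.8th percentile of its list in replicate 1 and between the 71.4th and 86.8th percentile in replicate 2. In replicate 2, called without a control, it was 8.2, 8.3 and 8.8 fragments at the first, the second and the third Gfi1b site. It was 6.7 at Gfi1, and the median peak had 5.6. Fold enrichment is a ratio to this background, and the part of the background in the fold enrichments and their ranks was not tested.

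**Figure D3:**
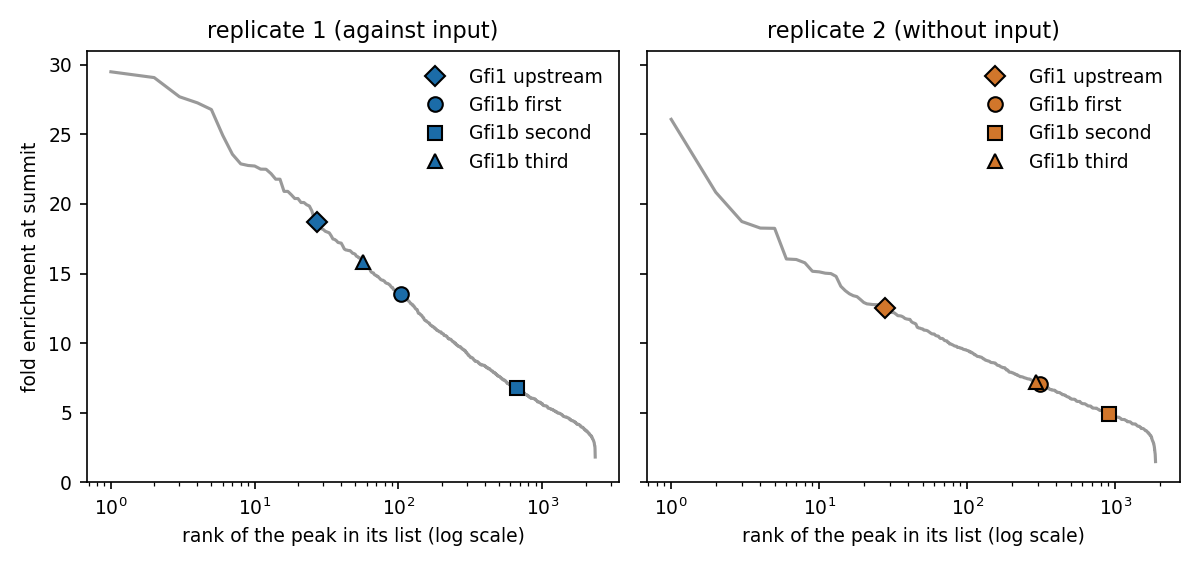
Fold enrichment (y axis) of all peaks against rank in the list (x axis, log scale), with the 4 sites marked, for replicate 1 (left) and replicate 2 (right). The Gfi1 site ranks 27 and 28, whereas the second Gfi1b site ranks 663 and 903.

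Over the whole experiment, 43.0% of replicate 1 peaks overlapped a replicate 2 peak by at least 1 bp, and 54.2% of replicate 2 peaks overlapped a replicate 1 peak. Peaks had 12 to 206 summit fragments in replicate 1 and 18 to 236 in replicate 2. Median fold enrichment was 5.24 and 4.85. In the union of both lists, 1002 of 3192 sites were called in both. The 4 sites were shared in 4 of 4 cases against these shares. With a reciprocal overlap of 50% required, 1 of the 3 Gfi1b sites and the Gfi1 site were shared, and with summits required to lie within 50 bp, 2 of the 3 Gfi1b sites and 0 at Gfi1 were. Each was also a region of the series-wide list, which gave the exact stretch common to both peaks. This was 457 bp at Gfi1 and 227, 243 and 317 bp at the Gfi1b sites, in each case the whole replicate 2 peak. With starts counted from 1, 2949 regions of that list were equal to a called peak. The share of all sites in that list was not counted, so its regions at these 4 sites are not read as further evidence for them.

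The 3 Gfi1b sites stood close together. The first and second summits were 2870 bp apart in replicate 1 and 2897 bp in replicate 2, and the second and the third were 1263 and 1178 bp apart. The outermost summits were 4133 and 4075 bp apart. Only 2 places in the genome held 3 or more of the 1002 shared sites within 5 kb, and the Gfi1b sites were 1 of them. Within 10 kb there were 5 such places and within 20 kb there were 6, the Gfi1b sites included. The 5 kb span was chosen after the Gfi1b spacing was seen, so these counts describe the sites and are not a test.

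A shared site in the gene or within 100 kb was found for 10.7% of 22381 protein-coding genes (2405 genes), and 3 or more such sites for 0.523% (117 genes). Gfi1, with 1 site, belongs to the 1935 genes with exactly 1. Gfi1b, with 3, belongs to 79 genes with exactly 3. Neighbouring genes share sites in this count, those of Gfi1b with Gtf3c5 among them.

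**Figure D4:**
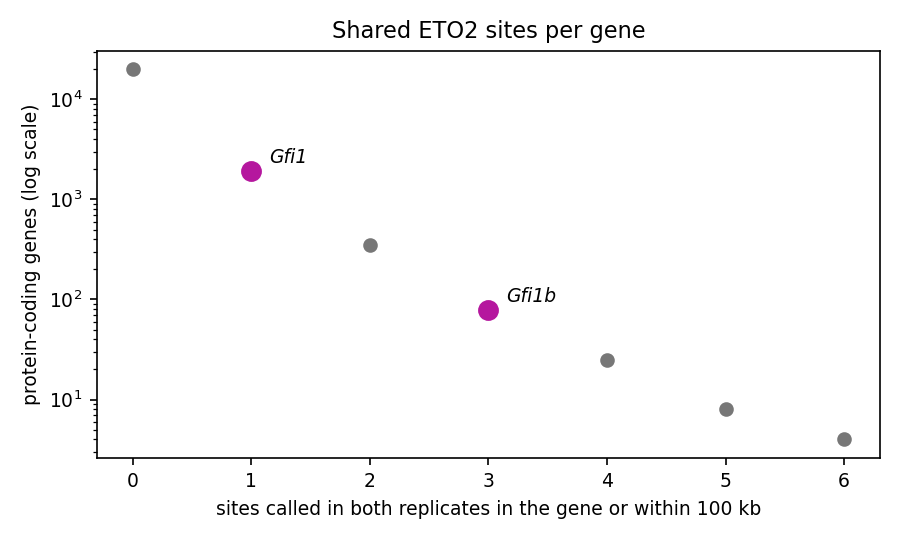
Number of protein-coding genes (y axis, log scale) by the number of ETO2 sites called in both replicates in the gene or within 100 kb (x axis). Gfi1 is among 1935 genes with 1 site and Gfi1b among 79 genes with 3, marked in magenta.

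Motif letters were searched on either strand within 100 bp windows around each summit and read beside their share in all peaks called in both replicates. The GATA motif was present at 4 of 4 sites by replicate 1 summits and at 2 of 4 by replicate 2 summits. Its share in all shared peaks was 72.5% in replicate 1 and 73.0% in replicate 2, so that GATA motifs at these sites were not set apart from other ETO2 peaks. At Gfi1 the window held 2 overlapping GATA motifs in replicate 1 and none in replicate 2, whose summit had its closest GATA motif 53 bp away. At the first Gfi1b site both windows held the facing pair, 30 bp from the summit. The second Gfi1b site had 1 GATA motif in each window, 28 bp from the summit of replicate 1 and 1 bp from that of replicate 2. The third had 1 motif in the replicate 1 window, 36 bp from the summit, and none in that of replicate 2, where the closest was 56 bp away.

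A pair of GATA motifs starting within 10 bp of each other was seen in 2 of the 4 windows in replicate 1 (Gfi1 and the first Gfi1b site) and in 1 of 4 in replicate 2 (the first Gfi1b site). This was so in 2.99% of shared peaks in replicate 1 and 3.25% in replicate 2. The distance of 10 bp was chosen after these sequences were seen, so the pair is a description. Over the whole replicate 1 peaks, the GATA motif occurred 4 times at Gfi1 and 3, 2 and 3 times at the first, the second and the third Gfi1b site. At least 2 GATA motifs in the peak were found in 69.8% of shared replicate 1 peaks and in 63.3% of shared replicate 2 peaks.

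The spaced CTG and GATA pair, the arrangement described for SCL and GATA complexes, was in the summit window of 1 of 4 sites in each replicate, the second Gfi1b site, which was also the weakest. Its share was 36.7% in replicate 1 and 38.1% in replicate 2. Anywhere in the replicate 1 peak it was found at 3 of 4 sites (2 times at Gfi1, 2 times at the second and once at the third Gfi1b site), beside 62.3% of shared peaks in replicate 1 and 59.6% in replicate 2. The first Gfi1b site had none in its 608 bp. The spaced pairs at the Gfi1b sites share their GATA letters with a GATA motif and are not independent of it, whereas the pair printed at Gfi1 ends in GATA letters outside any GATA motif.

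An E-box (CANNTG) was in the window of 4 of 4 sites in both replicates, beside 47.9% of shared peaks in replicate 1 and 48.7% in replicate 2. It lay 9 bp from the replicate 1 summit at Gfi1 and at the first and the third Gfi1b site. The ETS core (AGGAA) was in 1 of 4 windows in replicate 1, the second Gfi1b site, and in 2 of 4 in replicate 2, that site and Gfi1, beside 46.0% and 47.6%. The RUNX core (TGTGGT) was in the window of the Gfi1 site alone in both replicates, beside 12.4% and 13.6%. The matches differ: 1 lies 7 bp from the replicate 1 summit and another lies 26 bp from the replicate 2 summit. At the replicate 1 summit the RUNX match overlaps an E-box. The GFI1 core (AATCAC) was in the window of the third Gfi1b site alone in both replicates, 12 and 41 bp from the summits, beside 4.39% and 4.53%. The letters of the GATA motif in reverse order served as a control, spelled AATAGA or AATAGT and also GATAGA or GATAGT. They were in no window of the 4 sites and in 13.5% and 12.3% of shared peaks. GATAGA and GATAGT can overlap a GATA motif, so the control is not wholly separate from it. A match is a run of letters and does not show that a factor is bound.

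**Figure D5:**
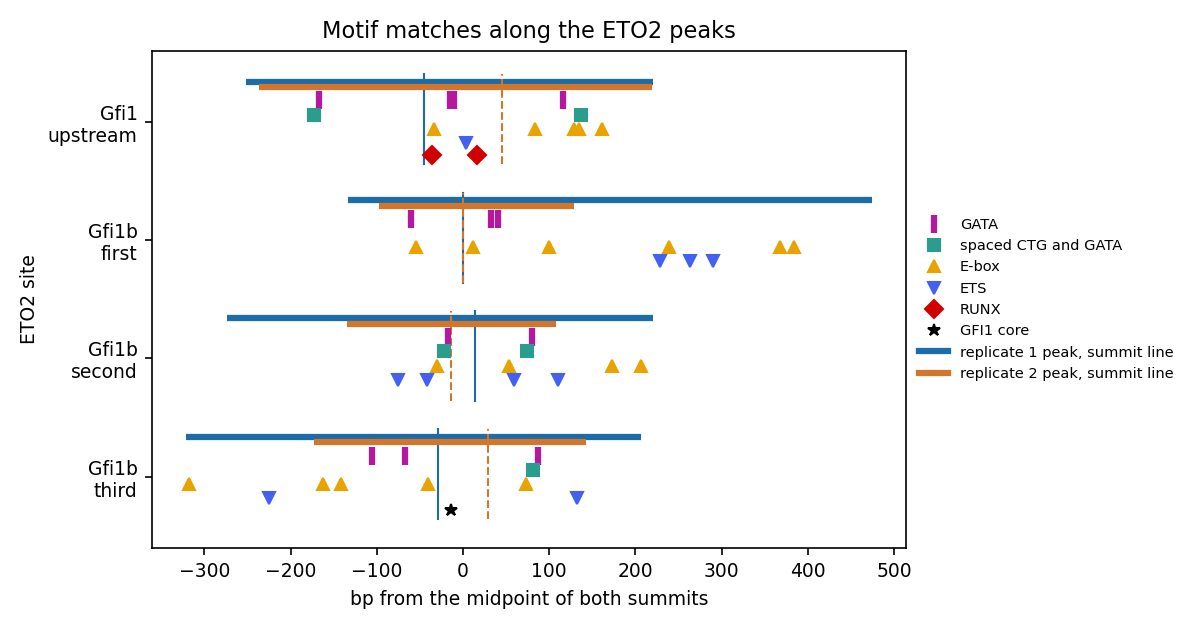
Motif matches (symbols) along each ETO2 site, as distance in bp from the midpoint of both summits (x axis), with the replicate 1 and replicate 2 peaks as blue and orange bars and their summits as vertical lines, solid and dashed. The Gfi1 site has its RUNX matches beside the overlapping GATA motifs, a spaced pair lies beside the replicate 2 summit of the second Gfi1b site, and the GFI1 core lies between the summits of the third.

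To place these sites among genes of related function, 3 lists were counted. Of 13 LSD1 and CoREST partner genes, 1 had a site nearest to its start (7.69%), beside 9.72% of all protein-coding genes, and the site was called in both replicates. It was Phf21a, which encodes the LSD1 complex subunit BHC80. Within 100 kb of Phf21a there were 2 sites, 1 called in both replicates and 1 in replicate 1 alone. The highest fold enrichment among them was 13.8 in replicate 1 and 8.60 in replicate 2. The other 12 genes, Kdm1a among them, had no site nearest to their start. Of 11 SNAG-domain factors, Gfi1 and Gfi1b included, 3 had a site nearest to their start, and for 1 of them, Gfi1, it was called in both replicates, beside 3.78% of all protein-coding genes with a shared site. Within 100 kb, 3 of the 11 had a shared site, beside 10.7% of all protein-coding genes, namely Gfi1 and Gfi1b themselves and Snai3, a paralogue of Snai1. Gfi1 and Gfi1b are the genes described here, so their part in these counts was given in advance. Apart from them, Snai3 was the only gene of the list with a shared site within 100 kb. The site near Snai3 was weaker than the Gfi1 site, since the highest fold enrichment within 100 kb of Snai3 was 4.24 in replicate 1 and 6.02 in replicate 2.

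Among 10 regulators known to bind Gfi1 or Gfi1b elements, 9 had a site nearest to their start and for 8 it was called in both replicates, beside the 9.72% and 3.78% above. This list was chosen with earlier results of these data known, so its counts are a description and not a test. Shared sites within 100 kb numbered 4 at Runx1, 3 at Lyl1 and Fli1, 2 at Tal1 and Gata2, and 1 at Lmo2, Gata1, Erg and Meis1. The highest fold enrichment of any site within 100 kb was at Tal1, with 26.8 in replicate 1 and 12.6 in replicate 2, the second close to the 12.5 of the Gfi1 site. At Gata1 it was 6.57 and 5.98, below the strongest Gfi1b site. Meis1 had no site nearest to its start, and Spi1 (Sfpi1 in the annotation) had 1 site that was called in replicate 1 alone.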

How the data were processed

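ETO2 ChIP-seq peak lists from 2 ChIP samples were used. Per the study's methods and the labels, paired reads were aligned to mm9 with Bowtie, duplicate reads were discarded and each replicate went alone through MACS2 2.0.10 for peak calling. In the deposited lists the authors give each peak a fold enrichment, which is a ratio to the local background, an integer score derived from its q-value, and its p-value and q-value as −log10. How the series list of positions was made was not stated.

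Summit fragments and local background were solved from the deposited fold enrichment and p-value under the Poisson model of the caller, which scaled the replicate 1 ChIP by 1.34. All peaks were solved (100%), and −log10 p was matched to within 9.38e-05, and the step was tested on simulated data. Peaks overlapping by at least 1 bp were 1 site. Start sites were those of coding transcripts in GENCODE vM1. That annotation lists Gfi1 as a processed transcript and RefSeq lists it as protein coding, so its starts were kept. Ajuba and Spi1 were matched by older symbols (Jub and Sfpi1). Motif windows were 100 bp. The named genes were both members, the gene holding a site or with the nearest start, and list genes with a site called in both replicates. Rpap2, the other neighbours within 100 kb, Kdm1a and Spi1 were named after their values were seen. The members, lists and motifs were chosen with earlier results of these data known. No test was made, since the samples form 1 ChIP group. The alternatives varied distance, nearest-start rule, overlap, thresholds, window and replicate. Intervals are exact Poisson at 95%, and for shares exact binomial. Python 3.11.15, pandas 2.3.3, scipy 1.17.1, pysam 0.24.0 and matplotlib 3.10.9 were used.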

Additional observations from a re-analysis of the deposited data

How the results depend on the processing

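Of 44 values recomputed under another setting, 37 stayed within 1.5 times the main count or within the exact interval of the main share. These bounds are wide. They include a GATA share of 50%, and 2 in place of 3 shared Gfi1b sites at a fold enrichment of 5 or more. A distance of 50 kb could not change the counts, since every site lay within it. The tally is therefore not a measure of robustness. With the nearest coding start site as the only rule, Gfi1b had 0 sites and 0 shared sites, and Gfi1 kept its 1. With a distance of 20 kb and no nearest start rule, an alternative chosen after seeing the data, Gfi1 had 0 sites and 0 shared sites and Gfi1b had 3. With any transcript start of the members, coding starts of other genes and no distance rule, also chosen after seeing the data, Gfi1b had 2. Under a reciprocal overlap of 50%, 1 of the 3 Gfi1b sites was shared, and with summits within 50 bp the Gfi1 site was not (0). A 50 bp window lowered the share of sites with a GATA motif, in either replicate, from 100% (exact interval 39.8 to 100%) to 25%. Without replicate 1 or replicate 2, Gfi1 had 1 site, Gfi1b had 3, the GATA share ranged from 50% to 100% and the partner list share was 7.69%. No paired analysis was possible because there is 1 ChIP group and no comparison between groups. Depth limits the second Gfi1b site most, with 26 fragments in replicate 1.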
